A study of Sus scrofa with 6 samples.

Results

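This account covers the ligands, receptors, SMAD proteins and inhibitors of the transforming growth factor beta (TGF-beta) and bone morphogenetic protein (BMP) pathways in cultured immature Sertoli cells of the pig. The members were 44 genes listed by symbol, and their rows were found by matching pig Ensembl identifiers to symbols. The deposited table held 17670 genes, of which 43 were members, and 39 of these were among the 12701 genes with enough reads to be tested. BMP2 was not analysed here. The groups were cells given 250 µM AA2P, which is L-ascorbic acid 2-phosphate and serves as a lasting source of vitamin C, after 6 h in culture, and control cells, with 3 libraries in each. All cells came from the testes of fetal pigs, 80 to 90 days into gestation, and grew in minimum essential medium with 10% fetal bovine serum. How long the treatment lasted and what the control cells received is not stated in the labels. The design asks how gene expression in vitamin C treated cells differs from that in control cells.

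In this pathway a secreted dimer brings together type I and type II receptor kinases, and the type I kinase phosphorylates receptor SMADs, which enter the nucleus with SMAD4. TGF-beta and activin ligands use TGFBR1 or ACVR1B and the receptor SMADs SMAD2 and SMAD3, while BMP ligands use ACVR1, BMPR1A or BMPR1B and SMAD1, SMAD5 and SMAD9. TGF-beta is secreted in a latent form that latent TGF-beta binding proteins (LTBPs) anchor in the matrix. Sertoli cells support germ cells within the seminiferous tubule, and members of this ligand family, such as anti-Müllerian hormone and the inhibins, are among their known products. Members were assigned to a TGF-beta and activin branch (17 genes with a row), a BMP branch (17 genes), the parts that serve both (8 genes) and GDF15, a distant family member.

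Library totals ran from 18747307 to 23521291 counts, and an undetected gene could still have up to 3 counts, which correspond to 0.123 to 0.165 CPM (read counts scaled to a common library size, with trimmed mean of M values or TMM factors), for counting error only. AA2P library 3 lay nearer to the control libraries than the others did, with a mean correlation to them across genes of 0.970, against 0.959 for AA2P library 1 and 0.961 for library 2. Of the 29 members called, AA2P library 3 was the treated library nearest to the control mean in 19, beside 54.7% of all called genes. When libraries were scaled by their totals alone, the centre of all log2 fold changes shifted up by 0.17, and 5727 genes were called higher and 1822 lower in place of 3302 and 3313. The labels do not tie the replicates to separate animals or dishes, and the p-values therefore rest on a spread between libraries that may be technical.

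The Sertoli label held for some markers and not for others. CLU averaged 1302 ± 266 CPM in AA2P libraries and 4230 ± 168 CPM in control libraries (SD, n = 3), and KRT18 218 ± 22.5 CPM with AA2P and 372 ± 12.5 CPM in controls. WT1, SOX9 and AMH were detected as well. But INHA had no read in AA2P libraries and at most 1 in a control library. DHH had at most 3 reads in any library and NR5A1 at most 5. Of 13 Sertoli markers 9 had a row, with none found for GATA4, FSHR, CLDN11 and DMRT1, and 6 were tested. With AA2P 4 of these were lower, SOX9 by 5.20-fold among them, GATA6 was higher (log2 fold change 0.41) and AMH was not called. The summed level of the 9 with a row was 1341 to 1916 CPM in AA2P libraries and 4488 to 4820 CPM in control libraries. CLU held most of that sum in every library. Markers of smooth muscle and peritubular cells summed to 294 to 346 CPM with AA2P and 416 to 423 CPM in controls, with 1 of 4 tested genes higher and 3 lower, and TAGLN held most of it. Of 6 stromal markers 3 had a row, and these summed to 38.3 to 46.0 CPM with AA2P and 34.6 to 40.2 CPM in controls. That sum rested mostly on the 2 tested genes, NR2F2, which rose, and COL1A1, which fell. COL1A2, a collagen gene outside this list, averaged 8637 CPM with AA2P and 12793 CPM in controls and fell 1.48-fold. Leydig markers summed to 6.36 to 7.38 CPM with AA2P and 5.58 to 5.84 CPM in controls, with the 1 tested gene not called. Macrophage markers summed to 5.79 to 6.56 CPM with AA2P and 1.13 to 2.04 CPM in controls, with AIF1 higher and MRC1 not called, while CD163 and CSF1R had at most 2 reads in any library. No germ cell marker had enough reads to be tested, and their sum was at most 0.411 CPM with AA2P and 0.437 CPM in controls. The part of these shifts in the results below was not tested. In bulk RNA, fewer cells of a type and less RNA per cell cannot be told apart.

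More members were lower than higher with AA2P, with TGF-beta ligands and receptors, latency proteins and inhibitors among those that fell and BMP ligands among those that rose. Of the 39 tested members 20 fell and 9 rose, by edgeR's quasi-likelihood test at a Benjamini-Hochberg adjusted p of 0.05 over all tested genes. Of all tested genes 26.1% were called lower and 26% higher, and 52.1% were called in either direction, against 51.3%, 23.1% and 74.4% of the tested members. The members' median log2 fold change was -0.23, where all tested genes had -0.00049. Called changes reached 1.5-fold in 15 members, 12 lower and 3 higher, which is 38.5% of those tested beside 18.2% of all tested genes. They reached 2-fold in 3 members, BMP6 upward and GDF15 and SMURF1 downward, beside 9.01% of all tested genes. All 3 lay close to that limit. With library totals GDF15 was at -0.87 and SMURF1 at -0.85 on the log2 scale, and BMP6 was at 1.18. The lowest BMP6 value under any alternative was 0.87. The AA2P and control libraries did not overlap in 30 of the 39 members, or 76.9%, beside 59.3% of all tested genes, with the AA2P libraries below in 21 and above in 9 (29.5% and 29.8% of all tested genes). With library totals 16 members fell and 12 rose, where 14.3% of all tested genes were called lower and 45.1% higher. Leaving out 1 library at a time gave 19 to 24 lower and 6 to 9 higher. In those fits 2845 to 3437 of all genes were called lower and 2869 to 3438 higher, of 12808 to 13005 tested.

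**Figure D1:**
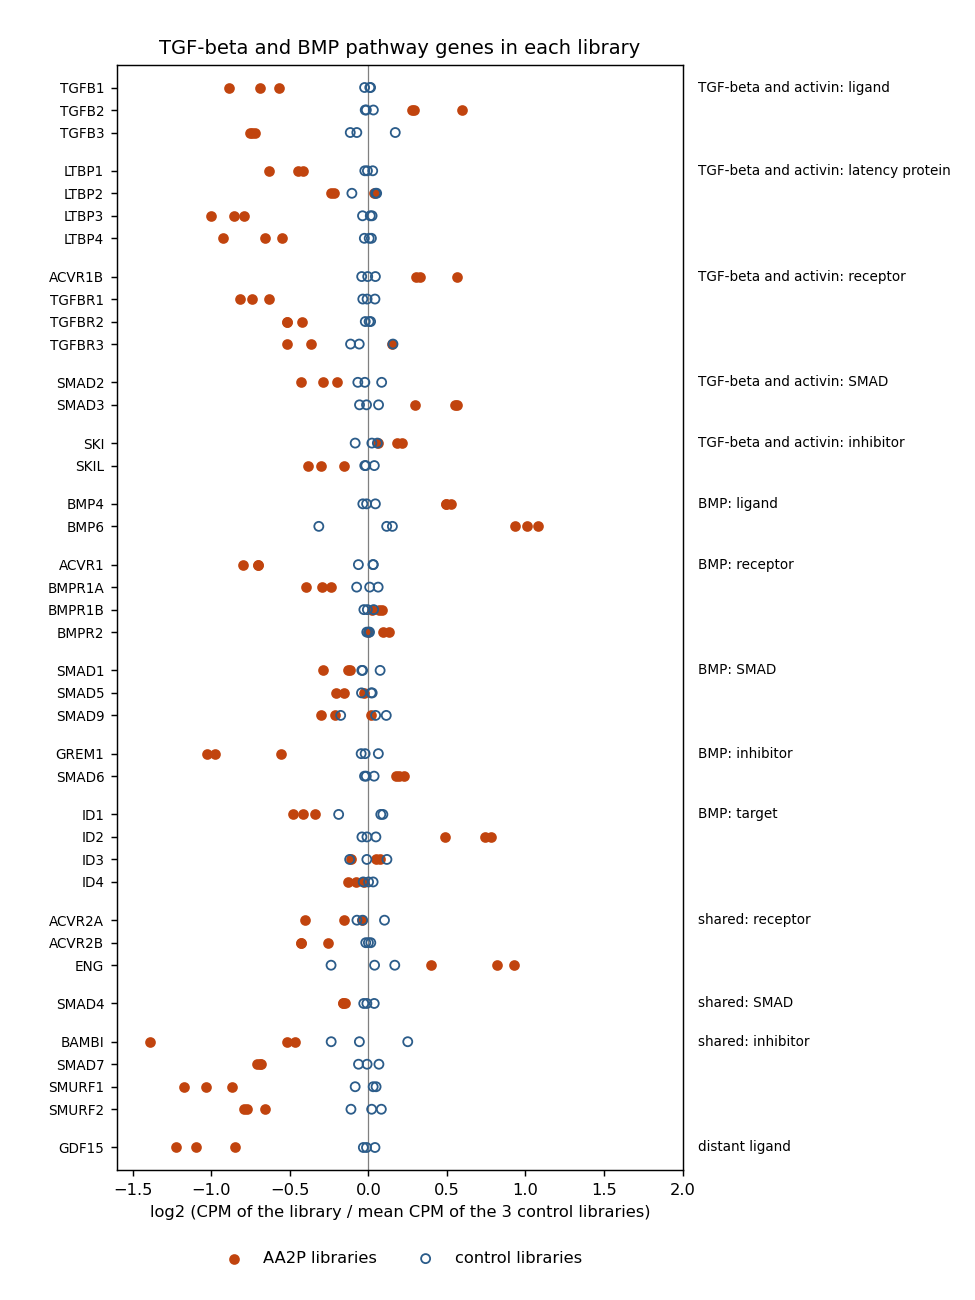
Level of each of the 39 tested members in each library, as log2 of its CPM over the mean CPM of the 3 control libraries, with AA2P libraries as filled and control libraries as open points, in rows by branch and role. In 30 members the filled and open points do not overlap, 21 with the AA2P libraries below and 9 with them above.

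More members fell than rose in the TGF-beta and activin branch, while the calls in the BMP branch were shared out much as those of all genes. In the TGF-beta and activin branch 9 of 15 tested members fell and 4 rose, with a median log2 fold change of -0.30. That is 60.0% lower and 26.7% higher, beside 26.1% and 26% of all tested genes. In the BMP branch 4 of 15 fell and 4 rose, or 26.7% each way, with a median of -0.08, and these shares lie at the background. Of the 8 members that serve both branches 6 fell and 1 rose, with a median of -0.53. These are descriptions, and the difference between the branches was not tested. With library totals 14.3% of all tested genes were called lower and 45.1% higher. The medians were then -0.13 and 0.09, with 7 lower and 4 higher in the TGF-beta and activin branch and 3 lower and 7 higher in the BMP branch. Without AA2P replicate 1 the BMP branch had 7 lower and 4 higher, beside 3264 and 3245 of 12939 tested genes. Without AA2P replicate 2 the TGF-beta and activin median was -0.45. Without control replicate 2, as without control replicate 3, the branch had 9 members lower and 2 higher. Of all tested genes 2845 were then lower and 2870 higher of 13005, and 2907 and 2901 of 12853.

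**Figure D2:**
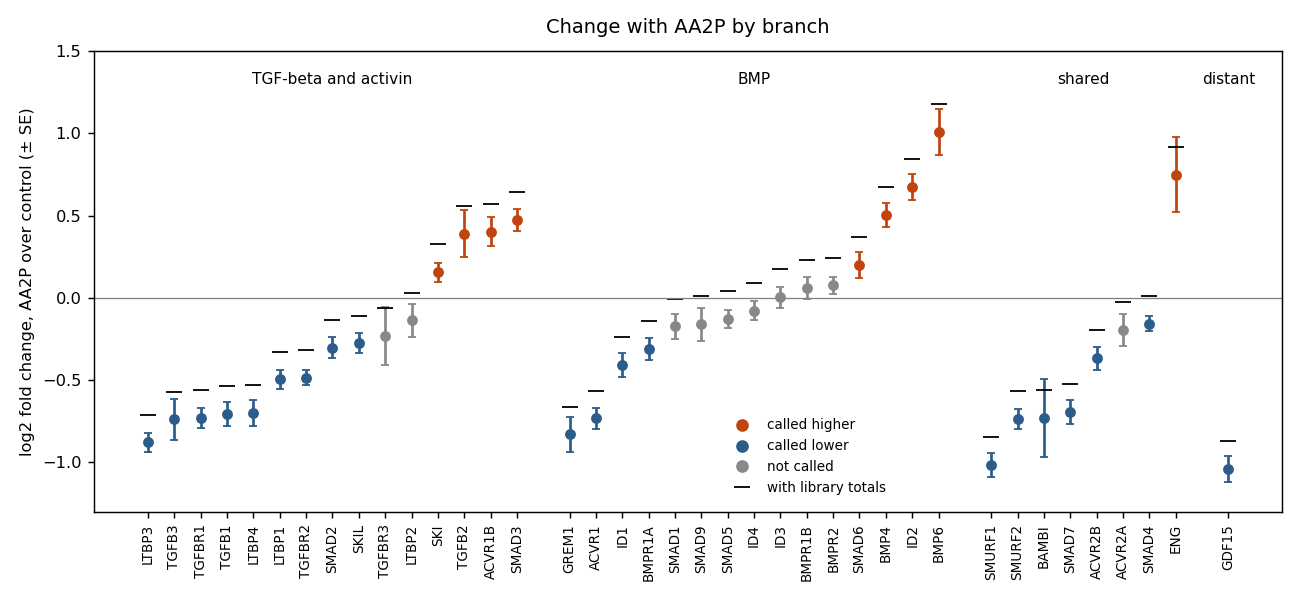
Log2 fold change of AA2P over control with its standard error for each tested member, in 4 columns by branch and ordered by size, with colour for the call and a black dash for the value with library totals. The TGF-beta and activin branch has 9 of 15 members called lower, the BMP branch 4 of 15, and the dashes lie above the points by about the 0.17 that the scaling moves all genes.

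The TGF-beta ligands moved apart. TGFB1, which encodes the most widely expressed isoform, was at 37.5, 43.0 and 46.9 CPM in AA2P libraries 1 to 3, against 70.2, 69.9 and 68.4 CPM in control libraries 1 to 3. TGFB3, the isoform known for its part in palate closure, was at 5.11, 5.05 and 5.18 CPM in AA2P libraries and at 8.11, 7.88 and 9.61 CPM in control libraries. All AA2P libraries lay below all control libraries for both genes, and TGFB1 fell 1.63-fold (log2 fold change -0.71, SE 0.07, adjusted p = 3.76e-07) and TGFB3 1.67-fold (log2 fold change -0.74, SE 0.12, adjusted p = 9.11e-05). TGFB3 overlaps IFT43 in the RefSeq annotation of Sscrofa11.1, and IFT43, a gene of ciliary transport, fell too, by 0.28 on the log2 scale (SE 0.10, adjusted p = 0.0283). TGFB2, the remaining isoform, was at 6.01, 4.81 and 4.85 CPM in AA2P libraries and at 4.06, 3.91 and 3.93 CPM in control libraries, from 71 to 120 reads each. The groups did not overlap, and TGFB2 rose 1.31-fold (log2 fold change 0.39, SE 0.14, adjusted p = 0.0315). Its adjusted p was 0.146 without AA2P replicate 1 and 0.0636, 0.0805 and 0.0800 without control replicates 1, 2 and 3, and DESeq2's Wald test gave an adjusted p of 0.0800. INHBA, the activin A subunit, had no read in any AA2P library and 2 reads in control library 3, below the level of 3 counts.

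Both tested BMP ligands rose. BMP6, a ligand known from iron control and bone, was at 8.16, 7.78 and 7.40 CPM in AA2P libraries, against 4.19, 4.30 and 3.11 CPM in control libraries. These levels came from 157 to 180 reads with AA2P and 64 to 93 reads in controls. The groups did not overlap and BMP6 rose 2.01-fold (log2 fold change 1.01, SE 0.14, adjusted p = 1.55e-05), the largest increase of any tested member. BMP4, a ligand of early germ cell and kidney development in mice, was at 24.3, 24.8 and 24.4 CPM in AA2P libraries and at 16.9, 17.1 and 17.8 CPM in control libraries. AA2P libraries again lay above all control libraries, and BMP4 rose 1.42-fold (log2 fold change 0.50, SE 0.07, adjusted p = 2.88e-05). BMP7, a kidney ligand of the same family, had a single read, in AA2P library 2.

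GDF15, a stress-induced circulating hormone distant from both branches, had the largest decrease of the members. It was at 23.3, 25.4 and 30.1 CPM in AA2P libraries, against 53.1, 55.9 and 53.9 CPM in control libraries, with no overlap. The fall was 2.06-fold (log2 fold change -1.04, SE 0.08, adjusted p = 1.5e-08).

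**Figure D3:**
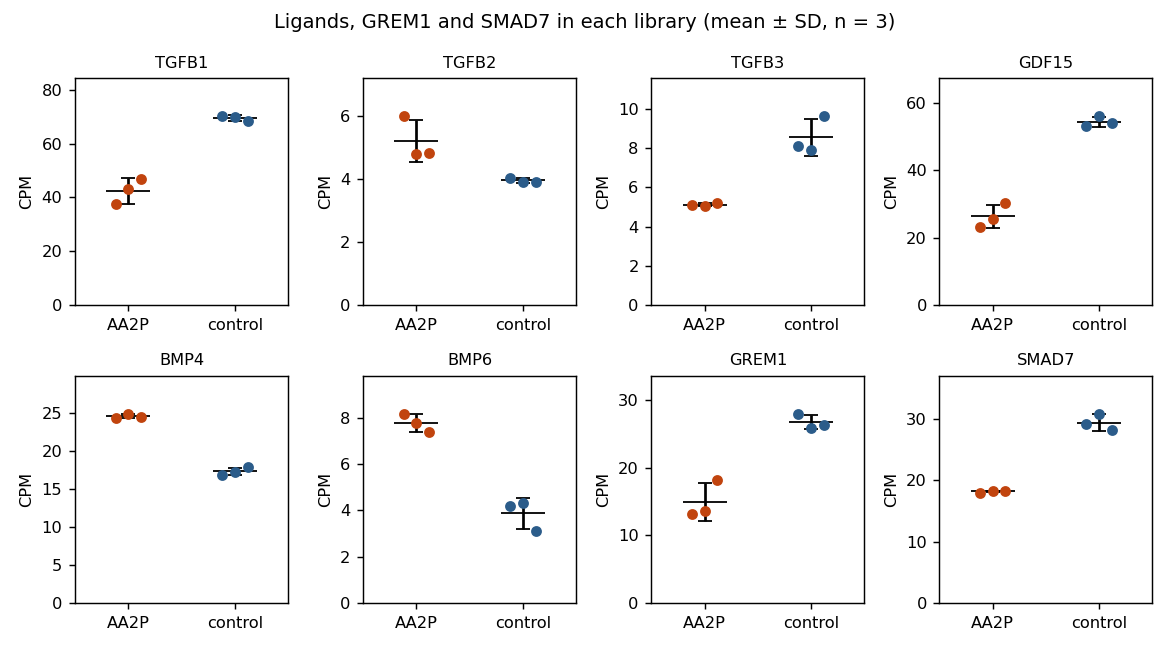
CPM of 6 ligands, of the BMP antagonist GREM1 and of the inhibitory SMAD gene SMAD7 in each library, with AA2P left and control right, points for libraries and lines for the mean and SD of 3 libraries. TGFB2, BMP4 and BMP6 are higher with AA2P (BMP6 at 7.40 to 8.16 CPM, beside 3.11 to 4.30 CPM in controls), and TGFB1, TGFB3, GDF15, GREM1 and SMAD7 are lower.

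The latency proteins fell with the exception of LTBP2. LTBP3, which carries latent TGF-beta and is needed for tooth enamel and bone in humans and mice, was at 80.8, 89.7 and 93.5 CPM in AA2P libraries, against 163, 165 and 158 CPM in control libraries. LTBP4, known from elastic fibre assembly, was at 23.0, 27.7 and 29.8 CPM in AA2P libraries and at 43.0, 44.3 and 43.9 CPM in control libraries. Neither gene had overlapping groups, and LTBP3 fell 1.84-fold (log2 fold change -0.88, SE 0.06, adjusted p = 2.11e-09) and LTBP4 1.62-fold (log2 fold change -0.70, SE 0.08, adjusted p = 1.95e-06). LTBP1 averaged 335 ± 26.0 CPM in AA2P libraries and 472 ± 8.40 CPM in control libraries (SD, n = 3) and fell 1.41-fold. LTBP2, which unlike the others does not bind latent TGF-beta, was at 12.1 to 14.6 CPM with AA2P and 13.3 to 14.8 CPM in controls, with a log2 fold change of -0.14 that did not pass (adjusted p = 0.271) and was 0.03 with library totals.

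Of the receptors, the TGF-beta pair TGFBR1 and TGFBR2 fell. TGFBR1, the type I kinase, was at 57.2, 52.9 and 50.2 CPM in AA2P libraries, against 91.2, 86.4 and 88.1 CPM in control libraries. The groups did not overlap, and the gene fell 1.66-fold (log2 fold change -0.73, SE 0.06, adjusted p = 3e-08). TGFBR2, the type II kinase that binds the ligand first, averaged 373 ± 14.3 CPM with AA2P and 522 ± 6.32 CPM in controls (SD, n = 3) and fell 1.40-fold (adjusted p = 2.67e-07). TGFBR3, the co-receptor betaglycan, was at 3.25 to 5.15 CPM with AA2P and 4.30 to 5.18 CPM in controls. Its log2 fold change of -0.23 did not pass (adjusted p = 0.286), and it was -0.45 with an adjusted p of 0.0464 without AA2P replicate 2.

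ACVR1B, the type I receptor of activins, went the other way. It averaged 23.7 ± 2.44 CPM with AA2P and 17.9 ± 0.543 CPM in controls (SD, n = 3), with no overlap, and rose 1.32-fold (log2 fold change 0.40, SE 0.09, adjusted p = 0.000957). ACVR2A and ACVR2B, the type II receptors that activins and BMPs share, averaged 17.1 ± 2.15 and 25.2 ± 1.73 CPM with AA2P and 19.6 ± 1.27 and 32.5 ± 0.360 CPM in controls. ACVR2B fell 1.29-fold (adjusted p = 0.000368), while ACVR2A had a log2 fold change of -0.19 and an adjusted p of 0.107. Without AA2P replicate 1 ACVR2A was at -0.28 with an adjusted p of 0.0264.

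The BMP receptors changed unevenly. ACVR1, the type I receptor ALK2, was at 29.0, 31.0 and 31.0 CPM in AA2P libraries, against 48.3, 51.5 and 51.6 CPM in control libraries. It had no overlap between groups and fell 1.66-fold (log2 fold change -0.73, SE 0.06, adjusted p = 5.23e-08). BMPR1A averaged 36.6 ± 2.06 CPM with AA2P and 45.3 ± 2.15 CPM in controls and fell 1.24-fold (adjusted p = 0.000794), but missed the threshold with library totals (adjusted p = 0.0796). In the same RefSeq annotation BMPR1A overlaps MMRN2, which codes for a protein of the endothelial matrix and averaged 0.416 CPM with AA2P and 11.5 CPM in controls. The part of shared reads in the BMPR1A value was not tested. BMPR1B averaged 26.9 ± 0.602 CPM with AA2P and 25.8 ± 0.564 CPM in controls, and the type II receptor BMPR2 212 ± 10.2 CPM and 202 ± 1.26 CPM. Neither passed the test (adjusted p = 0.483 and 0.222), but with library totals both were called higher, at 0.23 and 0.25 on the log2 scale. Without AA2P replicate 3 BMPR2 was at 0.12 with an adjusted p of 0.0326.

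ENG, which encodes the co-receptor endoglin and is best known from endothelial cells, rose from a low level. It was at 2.25, 1.69 and 2.42 CPM in AA2P libraries, against 1.08, 1.43 and 1.31 CPM in control libraries, from 34 to 59 reads with AA2P and 24 to 27 reads in controls. The groups did not overlap and the increase was 1.68-fold (log2 fold change 0.75, SE 0.23, adjusted p = 0.0116), but without control replicate 1 the adjusted p was 0.0588. FPGS, which overlaps ENG in the RefSeq annotation and codes for a folate enzyme, rose as well, by 0.61 on the log2 scale (SE 0.10, adjusted p = 0.000108). Of 10 endothelial markers 4 had a row and 3 were tested, and their summed level was 11.4, 13.7 and 11.0 CPM in AA2P libraries and 9.28, 10.6 and 8.88 CPM in control libraries. PECAM1 rose 3.10-fold to 6.97 ± 0.875 CPM with AA2P, against 2.26 ± 0.385 CPM in controls (SD, n = 3), EGFL7 fell 1.59-fold, TIE1 was not called, and TEK had at most 4 reads in any library. Their part in the ENG result was not tested.

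Of the receptor SMADs, SMAD2 and SMAD3 moved in opposite directions. SMAD3 was at 106, 106 and 88.7 CPM in AA2P libraries, against 75.4, 69.3 and 71.5 CPM in control libraries. All AA2P libraries lay above the controls, and SMAD3 rose 1.39-fold (log2 fold change 0.47, SE 0.07, adjusted p = 2.07e-05). AAGAB, which overlaps SMAD3 in the annotation, rose by 0.25 on the log2 scale (adjusted p = 0.0024). SMAD2 was at 95.7, 89.9 and 81.7 CPM in AA2P libraries and at 105, 108 and 117 CPM in control libraries. It fell 1.23-fold (log2 fold change -0.30, SE 0.06, adjusted p = 0.000666), a call that was lost with library totals (adjusted p = 0.0847).

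The receptor SMADs of the BMP branch did not pass the test. SMAD5 was at 162, 148 and 143 CPM in AA2P libraries, against 167, 160 and 168 CPM in control libraries, and the groups overlapped. Its log2 fold change was -0.13 (SE 0.05, adjusted p = 0.0597), that of SMAD1 -0.17 (adjusted p = 0.0618) and that of SMAD9 -0.16 (adjusted p = 0.184). Without AA2P replicate 1 all 3 were called lower, at -0.18, -0.20 and -0.26, and without AA2P replicate 3 SMAD1 was called at -0.20 (adjusted p = 0.0359). With library totals the values were 0.04 for SMAD5, -0.01 for SMAD1 and 0.01 for SMAD9.

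SMAD4, the partner of all receptor SMADs, was at 115, 115 and 116 CPM in AA2P libraries, against 128, 126 and 132 CPM in control libraries. The groups did not overlap and the log2 fold change was -0.16 (SE 0.05, adjusted p = 0.0117), but it was 0.01 with library totals and missed the threshold without control replicate 3 (adjusted p = 0.0575).

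Most inhibitors of the pathway fell, with 6 of 8 tested lower and 2 higher. That is 75% lower and 25% higher, beside 26.1% and 26% of all tested genes, so the share that rose lies at the background. SMURF1 and SMURF2 encode ubiquitin ligases that mark SMADs and receptors for breakdown. SMURF1 was at 36.0, 39.6 and 44.6 CPM in AA2P libraries, against 84.0, 82.9 and 76.6 CPM in control libraries, and SMURF2 at 55.5, 56.1 and 60.8 CPM in AA2P libraries, against 89.0, 102 and 97.5 CPM in control libraries. SMAD7, the inhibitory SMAD that blocks type I receptors of either branch, was at 18.0, 18.2 and 18.3 CPM in AA2P libraries and at 29.3, 30.9 and 28.2 CPM in control libraries. In these 3 genes every AA2P library lay far below every control library. The falls were 2.02-fold for SMURF1 (log2 fold change -1.01, SE 0.07, adjusted p = 6.2e-09), 1.67-fold for SMURF2 (-0.74, SE 0.06, adjusted p = 4.39e-08) and 1.62-fold for SMAD7 (-0.69, SE 0.07, adjusted p = 6.58e-07).

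GREM1 encodes gremlin, a secreted antagonist that binds BMP2 and BMP4. It was at 13.1, 13.6 and 18.2 CPM in AA2P libraries, against 27.9, 25.9 and 26.4 CPM in control libraries. AA2P library 3 was the highest of its group and still below all controls, and GREM1 fell 1.78-fold (log2 fold change -0.83, SE 0.11, adjusted p = 5.57e-06). BAMBI, a pseudoreceptor without a kinase domain, was at 1.90, 1.04 and 1.97 CPM in AA2P libraries and at 3.25, 2.31 and 2.62 CPM in control libraries, from 21 to 72 reads each. It fell 1.66-fold (log2 fold change -0.73, SE 0.24, adjusted p = 0.0158), a call lost without AA2P replicate 2 (-0.50, adjusted p = 0.0876) or control replicate 1 (-0.58, adjusted p = 0.0920). NOG, which encodes the antagonist noggin, had at most 1 read in any library, and FST, which encodes the activin-binding follistatin, had 2 to 8 reads in AA2P libraries and 5 to 11 reads in control libraries, so neither was tested.

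SMAD6, the inhibitory SMAD that acts mainly on the BMP branch, and the co-repressor genes SKI and SKIL changed by small amounts. SMAD6 averaged 20.2 ± 0.374 CPM with AA2P and 17.6 ± 0.398 CPM in controls (SD, n = 3) and rose 1.15-fold (log2 fold change 0.20, SE 0.08, adjusted p = 0.0386). The SMAD6 call was lost in 5 of the 6 fits that left out a library, with adjusted p-values of 0.112 and 0.0512 without AA2P replicates 2 and 3 and of 0.0647, 0.111 and 0.102 without control replicates 1, 2 and 3, and with DESeq2's Wald test (0.0838). SKIL, also known as SnoN, was at 79.6, 71.7 and 67.9 CPM in AA2P libraries, against 87.5, 87.1 and 90.8 CPM in control libraries. It fell 1.21-fold (log2 fold change -0.28, SE 0.06, adjusted p = 0.00112), but with library totals the adjusted p was 0.152. SKI averaged 139 ± 7.88 CPM with AA2P and 125 ± 6.31 CPM in controls and rose 1.11-fold (adjusted p = 0.0294). That call was lost without AA2P replicate 2 (0.0987) and without control replicates 2 (0.0688) and 3 (0.162).

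The ID genes, which encode inhibitors of basic helix-loop-helix factors and are textbook targets of BMP signalling, did not move together. ID2 was at 50.1, 48.9 and 41.0 CPM in AA2P libraries, against 28.4, 30.2 and 29.0 CPM in control libraries. Its groups did not overlap, and it rose 1.60-fold (log2 fold change 0.67, SE 0.08, adjusted p = 1.65e-06). ID1 was at 73.1, 69.8 and 77.0 CPM in AA2P libraries and at 104, 103 and 85.4 CPM in control libraries. All AA2P libraries lay below the controls, and ID1 fell 1.33-fold (log2 fold change -0.41, SE 0.07, adjusted p = 0.000127). ID3 averaged 128 ± 8.74 CPM with AA2P and 127 ± 10.5 CPM in controls, and ID4 43.2 ± 1.55 CPM and 45.6 ± 0.997 CPM (SD, n = 3). Neither passed the test (adjusted p = 0.970 and 0.283). With library totals ID3 was called higher at 0.17 (adjusted p = 0.0328), and ID4 was at 0.09.

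Ratios of read counts between members of the same library do not depend on the scaling of the libraries. For 14 pairs, chosen with the values known, 10 ratios were higher in every AA2P library than in any control library, 2 were lower and 2 overlapped. Which gene of a pair stood on top was a choice as well, so the split into higher and lower carries no result. A gene that rose without overlap, set over a gene that fell without overlap, was bound to give separate groups. The ratio of BMP4 to GREM1 reads, a ligand over its antagonist, was 1.85, 1.83 and 1.34 in AA2P libraries, against 0.603, 0.662 and 0.676 in control libraries. For SMAD3 over SMAD2 it was 1.11, 1.17 and 1.09 in AA2P libraries and 0.719, 0.641 and 0.614 in control libraries, so SMAD3 had more reads than SMAD2 in each AA2P library and fewer in each control library. This turn in read number is no order of transcript levels, since reads also scale with transcript length.

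Among the other pairs were ratios that were higher, lower and overlapping. SMAD6 over SMAD7 was 1.10, 1.13 and 1.10 in AA2P libraries and 0.615, 0.564 and 0.613 in control libraries. TGFB2 over TGFB1 averaged 0.125 ± 0.0307 with AA2P and 0.0571 ± 0.00100 in controls (SD, n = 3), ID2 over ID1 0.640 ± 0.0927 and 0.302 ± 0.0341, and BMP4 over TGFB1 0.582 ± 0.0649 and 0.249 ± 0.0107. The ligases did not keep their ratio, with SMURF1 over SMURF2 at 0.696 ± 0.0426 with AA2P and 0.848 ± 0.0843 in controls. The overlapping pairs were TGFB3 over TGFB1, at 0.121 ± 0.0133 with AA2P and 0.123 ± 0.0154 in controls, and SMAD5 over SMAD1, at 6.08 ± 0.502 and 5.87 ± 0.226. No test was made of these ratios, since the pairs were picked after their values were seen.

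**Figure D4:**
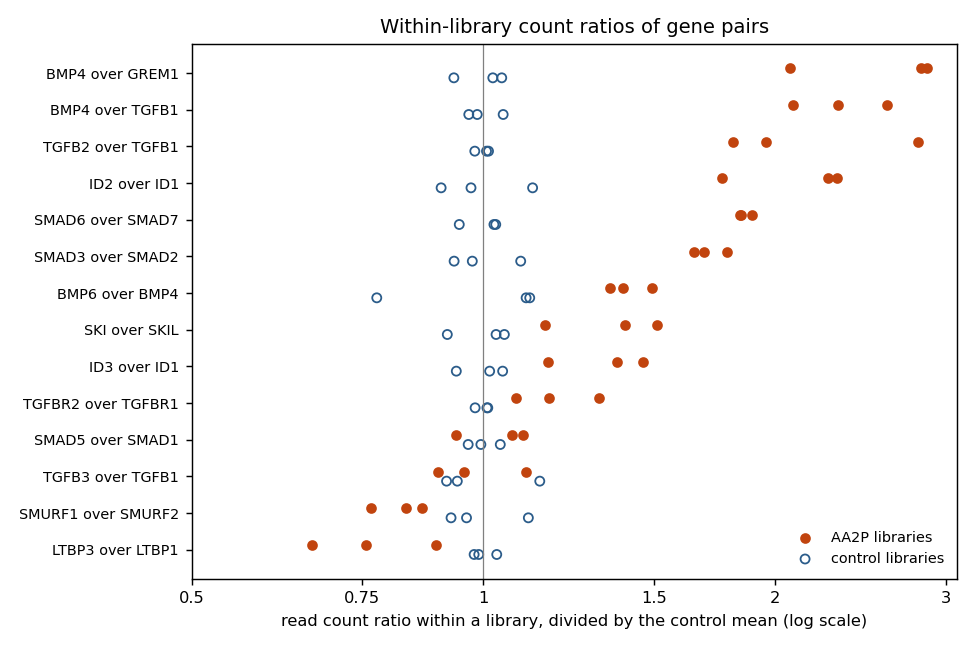
Ratio of read counts of 14 gene pairs in each library, divided by the mean ratio of the 3 control libraries, on a log axis, with AA2P libraries as filled points above the open points of the control libraries. BMP4 over GREM1, BMP4 over TGFB1 and TGFB2 over TGFB1 stand furthest to the right, and TGFB3 over TGFB1 and SMAD5 over SMAD1 overlap.

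Genes outside the members that TGF-beta is known to induce through SMADs were mostly lower. Of 21 tested genes of that list 18 fell and none rose, with a median log2 fold change of -1.01. Of all tested genes 26.1% were called lower and 26% higher. This list and the lists below were chosen with earlier results of these data known, so these counts are descriptions and no independent support. FN1, which encodes fibronectin, was at 6778, 7328 and 8699 CPM in AA2P libraries, against 25525, 26993 and 25608 CPM in control libraries. CCN2, a matricellular growth factor gene, was at 20.7, 24.4 and 24.4 CPM in AA2P libraries and at 66.4, 69.4 and 65.5 CPM in control libraries. Both lay far below the controls in every AA2P library, as did TGFBI, a matrix adhesion gene, and TNC, which encodes tenascin C, with falls of 3.40-fold and 6.76-fold. CDKN1A, CDKN2B and NOX4 did not pass (adjusted p = 0.612, 0.310 and 0.0915). With library totals 17 genes of the list fell and 1 rose, where 14.3% of all tested genes fell and 45.1% rose. Many of these genes are also targets of other pathways, and 3 of them, ACTA2, TAGLN and COL1A1, stand in the marker lists of smooth muscle or stromal cells as well.

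Of 6 tested BMP targets outside the members 3 fell and 1 rose, with a median of -0.28, and so few genes give little to set against the 26.1% and 26% of all tested genes. RUNX2, a bone transcription factor, averaged 70.0 ± 7.05 CPM with AA2P and 144 ± 5.08 CPM in controls (SD, n = 3) and fell 2.06-fold, and UNC5B, a netrin receptor gene, fell 2.24-fold. DLX1, a homeobox gene, averaged 1.49 ± 0.574 CPM with AA2P and 2.68 ± 0.343 CPM in controls and fell 1.75-fold. GATA3, a zinc finger transcription factor gene, rose 1.36-fold (log2 fold change 0.44, SE 0.11, adjusted p = 0.00396). The other 6 of the 12 with a row had too few reads to be tested.

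Proteins that release or activate latent TGF-beta had mostly lower transcripts. Among 12 tested genes 9 were lower and 2 higher (median -0.67), or 75% and 16.7%, beside 26.1% and 26% of all tested genes. With library totals 7 fell and 3 rose, where 14.3% of all tested genes fell and 45.1% rose. TGM2, which encodes a transglutaminase that links latent complexes to the matrix, averaged 7.36 ± 1.60 CPM with AA2P and 33.7 ± 1.99 CPM in controls and fell 4.53-fold. The proteases HTRA1 and BMP1, the second of which is a procollagen proteinase and no BMP ligand, fell 1.87-fold and 1.96-fold, and the integrin chain ITGB5 fell 1.93-fold. The 2 that rose, ITGB8 and MMP14, which were named after their values were seen, had log2 fold changes of 0.21 and 0.45. The adjusted p-values of TGM2, HTRA1, BMP1 and ITGB5 lay between 2.05e-10 and 5.6e-09.

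Most secreted antagonists and binders outside the members fell. Among 10 tested genes 7 were lower and 1 higher (median -0.54), beside 26.1% and 26% of all tested genes. With library totals 6 fell and 2 rose, where 14.3% of all tested genes fell and 45.1% rose. CRIM1, a membrane-bound BMP binder, averaged 784 ± 25.6 CPM with AA2P and 786 ± 14.0 CPM in controls (SD, n = 3), and neither it nor the fibrillin gene FBN1 was called (adjusted p = 0.951 and 0.498). CHRDL1, a chordin-like BMP antagonist, was at 406, 410 and 426 CPM in AA2P libraries, against 711, 730 and 707 CPM in control libraries. CHRD, which encodes chordin itself, averaged 31.6 ± 2.64 CPM with AA2P and 47.5 ± 1.33 CPM in controls and fell by 0.59 on the log2 scale. NBL1, an antagonist of the gremlin family, fell 2.86-fold and FSTL1, a follistatin-like glycoprotein, 1.67-fold. KCP, the single gene that rose and that was named after its value was seen, encodes a chordin-like protein and was at 0.46 on the log2 scale.

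Other ligands and receptors of the family were measured for few genes. Of 5 tested ligands 2 fell and 1 rose, with a median of -0.07, and the 60.0% called are near the 52.1% of all tested genes. With library totals 1 fell and 1 rose, where 14.3% of all tested genes fell and 45.1% rose. GDF11, a ligand close to myostatin, averaged 46.3 ± 0.990 CPM with AA2P and 36.3 ± 1.89 CPM in controls (SD, n = 3) and rose 1.27-fold. INHBB, the activin B subunit, averaged 3.05 ± 0.570 CPM with AA2P and 5.33 ± 0.130 CPM in controls and fell 1.73-fold, and the oocyte ligand GDF9 fell 1.26-fold. AMH, the hormone that marks Sertoli cells, averaged 34.5 ± 2.35 CPM and 36.4 ± 1.52 CPM and was not called (adjusted p = 0.384). NRP1, a co-receptor of several growth factors, rose 1.62-fold, while RGMB, a BMP co-receptor, was not called.

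Intracellular partners of SMADs were called about as often as all genes. Among 19 tested genes 5 were higher and 5 lower (median 0.01), or 26.3% each way, beside 26% and 26.1% of all tested genes. With library totals 12 rose and 3 fell, where all genes shifted upward too. NEDD4L and WWP2 encode ubiquitin ligases of the same HECT class as the SMURFs. NEDD4L averaged 121 ± 8.46 CPM with AA2P and 81.0 ± 2.65 CPM in controls (SD, n = 3) and rose 1.49-fold, and WWP2 rose 1.29-fold. ZFYVE9, which encodes the receptor SMAD anchor SARA, fell 1.51-fold, and TGIF1, a co-repressor gene, fell 1.55-fold. The adjusted p-values of these 4 genes lay between 4.51e-08 and 0.000139.

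**Figure D5:**
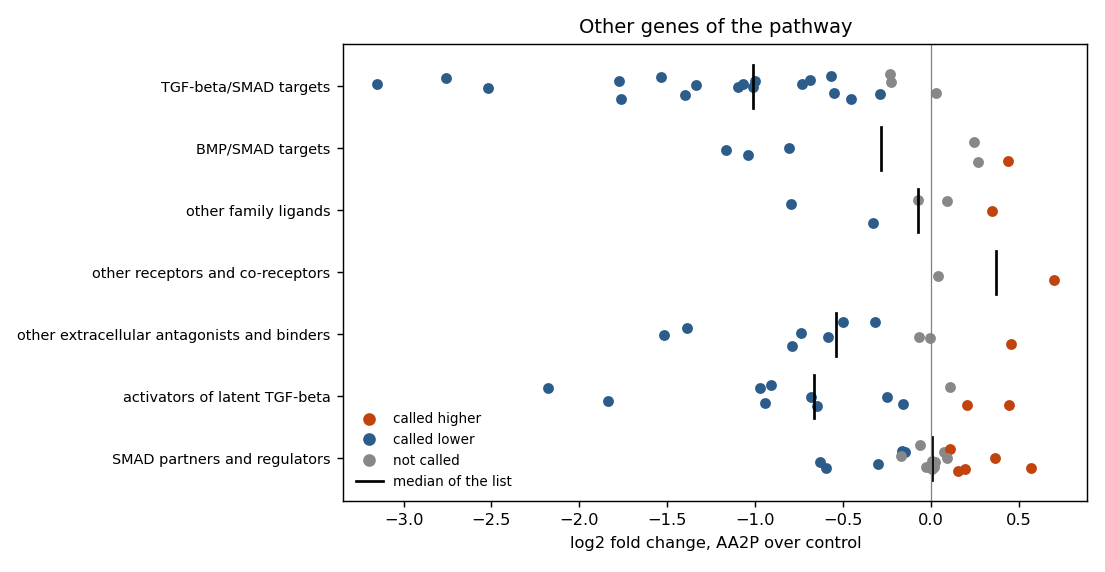
Log2 fold change of AA2P over control for the tested genes of 7 lists of pathway genes that hold no member, with 1 point for each gene coloured by its call, spread at random within its row, and a black line at the median of the list. The list of TGF-beta targets has 18 of 21 genes called lower and a median of -1.01, and the list of SMAD partners is centred near 0 with a median of 0.01.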

How the data were processed

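Total RNA was isolated with TRIzol from 3 AA2P and 3 control samples and sequenced on a HiSeq X-Ten, per the labels' protocols. Reads passed through bcl2fastq and HISAT2 2.0.5, which the submitters' processing notes name. For the counting tool, strand setting, annotation and build, the answer is not given in the sources used here, so reads of overlapping genes cannot be told apart. In RefSeq's Sscrofa11.1 annotation, used for names only, 8 of the 43 members overlap another coding gene. The authors deposited whole-number read counts per gene, not normalized.

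From these counts, R 4.3.3 with edgeR 4.0.16 gave TMM-scaled CPM and a quasi-likelihood F test with the group alone after filterByExpr, Benjamini-Hochberg adjusted over 12701 genes. The threshold was an adjusted p of 0.05. Each log2 fold change is AA2P over control, with an SE equal to its size divided by the root of F. Counts of replicate pairs were compared by chi-square, which per degree of freedom lay between 2.63 and 11.5, so no library was a copy of another. Members and lists were chosen with earlier results of these data known. The lists were 7 of pathway genes and 7 of cell type markers.

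Values in every library are given for called members changed at least 1.5-fold with a mean of at least 1 CPM, or else for the member of a role with the smallest p. From each list of pathway genes up to 4 called genes with the smallest p are named. The same is given for TGFB2, BMP4, SMAD2 and ID1, chosen after their values were seen. CDKN1A, CDKN2B, NOX4, COL1A2, ITGB8, MMP14, KCP, CRIM1, FBN1, AMH, RGMB and the genes that overlap members lie outside this rule. A simulation had 12585 tested genes and 200 genes set to change. It recovered 41 of 50 genes with a log2 change of 0.5 and 48 of 49 at 1. At 2 and at 3 it recovered 49 of 49 each, and 11 of 198 calls were false. In the data 6615 of 12701 genes were called, a far larger share, so these rates may not hold there.

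Alternatives were DESeq2 size factors, library totals, no filter, 1 CPM in 3 libraries, limma-voom (limma 3.58.1), a Wald test in DESeq2 1.42.0, the replicate number as a block, an adjusted p of 0.01 and each library left out. No protein or promoter sequences were used here.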

Additional observations from a re-analysis of the deposited data

How the results depend on the processing

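Of the 39 tested members, 20 kept their direction and their side of the threshold under all 14 alternatives, and these were 20 of the 29 called members. Library totals moved the TGF-beta and activin branch median to -0.13 and the BMP branch median to 0.091, and turned the log2 fold changes of LTBP2 to 0.032, SMAD4 to 0.013, SMAD5 to 0.042, SMAD9 to 0.0082 and ID4 to 0.091. Without a filter the TGF-beta and activin median was -0.49, since INHBA and FST then entered it, and ID3 was at -0.00319. ID3 turned in 4 of the 6 fits that left out a library, where it lay between -0.054 and 0.065. At an adjusted p of 0.01, 5 members were higher and 18 lower, beside 2547 and 2548 of 12701 tested genes. Leaving out 1 library at a time, the TGF-beta and activin median lay between -0.45 and -0.24.

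Libraries with the same number did not deviate together, with correlations of -0.039, -0.017 and -0.055, so the numbers were not taken as pairs. With the replicate number as a block, 7 members were higher and 20 lower, beside 3094 and 3110 of 12701 tested genes. In that fit SMAD6 and SKI missed the threshold (adjusted p = 0.0760 and 0.0514). Low depth limits TGFB2, TGFBR3, BAMBI, ENG and, in control libraries, BMP6. NOG, BMP7, INHBA and FST could not be tested.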
